A study of Bos taurus with 4 samples.

Results

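ACSS2 and ACLY are the enzymes of the acetate and citrate routes to cytosolic acetyl-CoA, and they were chosen by name, as 2 of the 36373 UniGene clusters (groups of transcript sequences held to come from the same gene) in the read tables. Each was described by its reads, by its RPKM (reads per kilobase of cluster and 1000000 unique reads) and by the ratio of ACSS2 to ACLY in every library. The tissue was subcutaneous adipose tissue of Chinese Qinchuan cattle, and each of the 4 poly(A) libraries was a pool of 5 animals: ATFB from fetal bovines of 200 to 250 days, and ATAB from adult bulls, ATAH from adult heifers and ATAS from adult steers (castrated males), all of 18 to 24 months. With 1 library per group, the pairwise tests below compared libraries and covered counting error only, since the spread between animals was lost in the pools.

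Acetyl-CoA is the carbon donor for new fatty acids and sterols. In most mammals the cytosolic supply comes largely from glucose, through pyruvate, mitochondrial citrate and ATP citrate lyase (ACLY), which splits exported citrate into acetyl-CoA and oxaloacetate. Ruminants absorb little glucose and much acetate from the rumen, and their fat builds fatty acids mainly from acetate, which acyl-CoA synthetase short-chain family member 2 (ACSS2) joins to coenzyme A in the cytosol. Before birth the calf is fed through the placenta, with no working rumen.

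The stretch of each deposited cluster that encodes its family's signature is printed to show what separates reads of ACSS2 from those of its relatives. Capitals mark the codons of the AMP-binding signature in ACSS2, in the mitochondrial acetate enzyme ACSS1 and in ACSS3, a mitochondrial short-chain acyl-CoA synthetase, and the codons of the signature around the active-site histidine in ACLY. All are 5′ to 3′ on the coding strand, and positions count from the first base of the cluster.
ACSS2 (bases 956 to 1051): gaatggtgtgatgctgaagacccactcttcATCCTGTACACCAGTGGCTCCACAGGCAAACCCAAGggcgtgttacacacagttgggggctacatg
ACSS1 (bases 811 to 906): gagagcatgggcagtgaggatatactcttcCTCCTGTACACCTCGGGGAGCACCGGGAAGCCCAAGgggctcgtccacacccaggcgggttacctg
ACSS3 (bases 957 to 1052): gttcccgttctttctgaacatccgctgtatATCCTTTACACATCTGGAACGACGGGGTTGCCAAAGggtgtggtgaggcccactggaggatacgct
ACLY (bases 2240 to 2350): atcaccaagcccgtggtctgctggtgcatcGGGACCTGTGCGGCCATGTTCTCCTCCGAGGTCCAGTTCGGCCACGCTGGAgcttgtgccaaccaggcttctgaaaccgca
Over these 96 bases ACSS2 equalled ACSS1 at 60 and ACSS3 at 52, with no equal run longer than 11 and 5 bases, respectively.

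The ACSS2 cluster was 2925 bases long with an open reading frame at bases 50 to 2155, which encodes 701 residues. The ACLY cluster was 4255 bases long with an open reading frame at bases 65 to 3340, which encodes 1091 residues. No other cluster matched ACSS2 at 95% identity over 150 bases or more. The nearest was ACSS1, at 65.5% identity over 490 bases. ACLY shared 643 bases after its coding end, at 99.4% identity, with an unnamed cluster of 654 bases described as a 3′ cDNA sequence. Its deposited sequence runs on the opposite strand, and whether it is part of the ACLY transcript was not tested. It held 2 reads in fetal fat, 12 in bulls, 15 in heifers and 1 in steers. Only reads with a unique match were counted. If that was judged between clusters, reads from those 643 bases, 15.1% of the ACLY cluster, may in part be missing from its count. The covered share of the ACLY cluster was 99.2% to 99.9% over the 4 libraries, so reads in that stretch were counted too. For ACSS2 it was 98.1% to 99.9%.

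In units of 1000000 unique reads, the libraries held 15.3 to 16.1. Adipocyte markers were present in each: the summed RPKM of 10 clusters from the list of 12 was 1145 in fetal fat, 8207 in bulls, 8442 in heifers and 7443 in steers. Skeletal muscle markers were near the floor, at 1.43 to 4.83 summed over 3 clusters. ATFB carried RNA of other cells. Of the 6 listed erythroid markers 2 had a cluster. HBG2 (a fetal globin chain) had 2365 RPKM in ATFB against 0 to 1.51 in the adults. ALAS2 (heme synthesis) had 25.5 in ATFB against 0 to 0.0327. HBA and HBB, also listed, had no cluster, so these values do not show how much red cell RNA the adults held. The 6 clusters of preadipocyte and fibroblast markers summed to 11038 in fetal fat, 7747 in bulls, 2290 in heifers and 2998 in steers. The collagens COL1A1 (3412) and COL3A1 (2903) made up most of the sum in bulls. Only COL3A1 was higher in bulls than in fetal fat, where it had 1980. DLK1, the preadipocyte factor, had 566 in fetal fat and 0 in bulls, and DCN had 3916 and 1115. In fetal fat, bulls, heifers and steers, leukocyte markers (5 clusters) summed to 297, 763, 1032 and 1878. CD74 alone gave 206, 624, 900 and 1663 of these, and CD14 had 53.1, 56.5, 54.7 and 81.4. All 5 were highest in steers. Endothelial markers (4 clusters) summed to 182, 256, 354 and 450 in the same order. The part of these cells in the differences below was not tested. In whole tissue, fewer cells of a type and less RNA per cell cannot be told apart.

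ACSS2 was high in the adult bull and heifer libraries and low before birth. Its reads were 4260 in fetal fat, 55878 in bulls, 39390 in heifers and 11583 in steers. Per length and depth, these were 95.3 RPKM in fetal fat (95% Clopper-Pearson interval 92.5 to 98.3), 1183 in bulls (1173 to 1193), 864 in heifers (855 to 872) and 255 in steers (250 to 259). No interval overlapped another, and the order was ATAB, ATAH, ATAS and ATFB. By RPKM, ACSS2 had rank 48 of the 31003 clusters with a read in ATAB and rank 53 of 31883 in ATAH, against rank 259 of 31508 in ATAS and rank 918 of 31236 in ATFB.

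ACLY followed another order, with its lowest level in the steer library. Its reads were 3101 in fetal fat, 18955 in bulls, 18381 in heifers and 1829 in steers. These were 47.7 RPKM in fetal fat (46.0 to 49.4), 276 in bulls (272 to 280), 277 in heifers (273 to 281) and 27.6 in steers (26.4 to 28.9). ATAB and ATAH overlapped, and the other libraries stood apart from them and from each other. The rank of ACLY was 226 in ATAB and 223 in ATAH, 1909 in ATFB and 3422 in ATAS. Across the adults the highest ACLY level was 10.03 times the lowest, against 4.65 times for ACSS2.

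**Figure D1:**
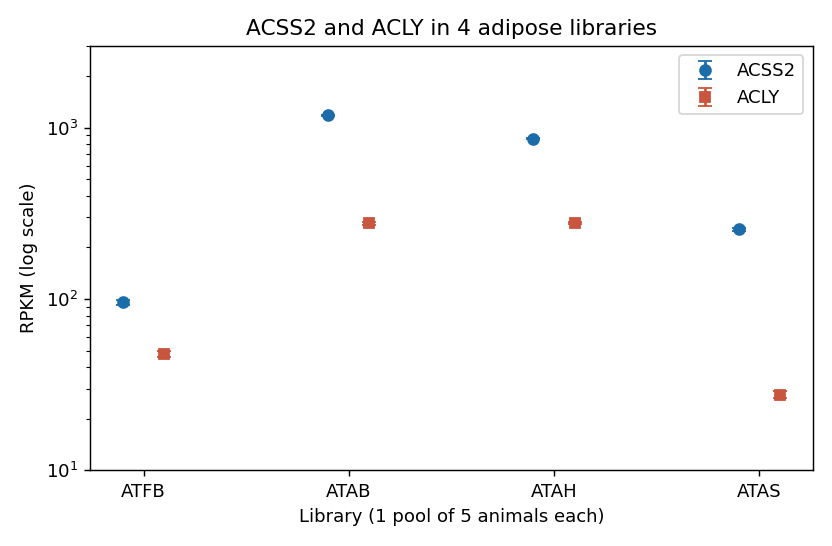
RPKM (log axis) of ACSS2 (circles) and ACLY (squares) in the 4 libraries, with 95% Clopper-Pearson intervals of the read count, which are hardly wider than the symbols. ACSS2 lies above ACLY in every library, from 95.3 against 47.7 RPKM in ATFB to 255 against 27.6 in ATAS.

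ACSS2 exceeded ACLY in each of the 4 libraries, and by very different factors. The ratio of ACSS2 to ACLY RPKM was 1.998 in fetal fat (1.91 to 2.09), 4.29 in bulls (4.22 to 4.36), 3.12 in heifers (3.06 to 3.17) and 9.21 in steers (8.77 to 9.68). It was lowest in the fetal library and highest in the steer library, with no overlap of intervals. As a share of the summed RPKM of the pair, ACSS2 took 66.6% in fetal fat, 81.1% in bulls, 75.7% in heifers and 90.2% in steers. The sum itself was 143 RPKM in fetal fat, 1459 in bulls, 1141 in heifers and 282 in steers, so the steer library combined the highest share of ACSS2 with a sum below those of the other adult libraries.

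The ratio within a library does not depend on the library total, and the ratio between libraries does not depend on cluster length. Against ATFB, the ACSS2 to ACLY ratio was 2.15 times as high in bulls (exact conditional 95% interval 2.04 to 2.25), 1.56 times in heifers (1.48 to 1.64) and 4.61 times in steers (4.31 to 4.94). Among the adults, the ratio in ATAS was 2.15 times that in ATAB (2.04 to 2.26) and 2.96 times that in ATAH (2.80 to 3.12). ATAH stood at 0.727 times ATAB (0.710 to 0.745). The size of the ratio within a library does depend on the ACLY length used.

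FASN, the fatty acid synthase that consumes the products of both routes, gave a second scale. ACSS2 per FASN (ratio of RPKM) was 0.690 in fetal fat (0.667 to 0.714), 0.764 in bulls (0.757 to 0.772), 0.652 in heifers (0.645 to 0.659) and 0.425 in steers (0.416 to 0.433). The first 3 libraries lay close together and ATAS lay below them. ACLY per FASN was 0.345 in fetal fat (0.332 to 0.359), 0.178 in bulls (0.176 to 0.181), 0.209 in heifers (0.206 to 0.212) and 0.0461 in steers (0.0440 to 0.0483). Relative to FASN, ACLY was thus highest in the fetal library, and in ATAS it was 0.220 times its value in ATAH (0.210 to 0.231).

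**Figure D2:**
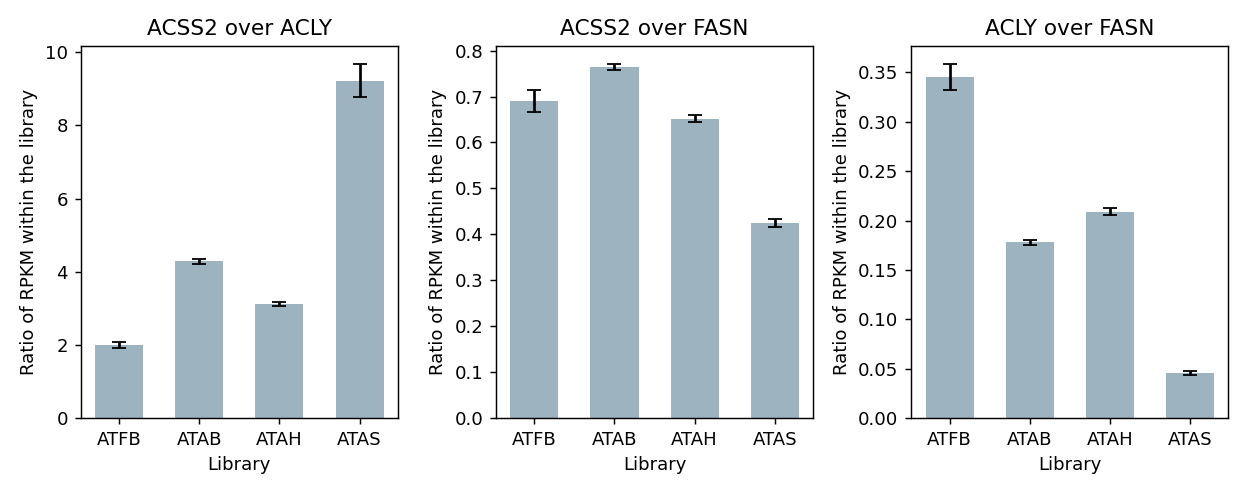
Ratios of RPKM within each library for ACSS2 over ACLY, ACSS2 over FASN and ACLY over FASN, with 95% Clopper-Pearson intervals (bars start at 0). ATAS has the highest ACSS2 to ACLY ratio (9.21) and the lowest ratio to FASN of both genes (0.425 and 0.0461).

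The first comparison asked how fetal and adult fat differ. A cluster was called different between 2 libraries where an exact two-sided binomial test of its reads, given the library totals, had a Benjamini-Hochberg FDR of 0.001 or less over all clusters with a read and the levels differed at least 2-fold. This called 22.9% of clusters in ATAB over ATFB, 24.1% in ATAH over ATFB and 26.3% in ATAS over ATFB. ACSS2 was called higher in all 3 adult libraries: 12.4-fold in bulls (12.03 to 12.80), 9.06-fold in heifers (8.78 to 9.35) and 2.67-fold in steers (2.58 to 2.77). ACLY was called higher in ATAB, 5.78-fold (5.57 to 6.01), and in ATAH, 5.81-fold (5.59 to 6.03). In ATAS it was 1.73-fold lower than in ATFB (1.63 to 1.83), with an exact FDR of 4.96e-78 but under the 2-fold limit; with ACTB, a cytoskeletal actin, as scaling gene it passed that limit, at -1.04 on the log2 scale. Among the 15094 to 15697 clusters with at least 100 reads over the pair, those with a larger log2 ratio than ACSS2 made up 1.09% in ATAB over ATFB, 2.47% in ATAH over ATFB and 16.1% in ATAS over ATFB. For ACLY the shares were 2.88%, 4.54% and 79.9%. The other FDRs were too small for the computation to represent.

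Only this comparison has several libraries on a side, and with ATFB against the 3 adult libraries edgeR's quasi-likelihood test had 2 residual degrees of freedom. The fetal side was 1 library, and the spread came from treating the bull, heifer and steer pools as replicates, though they differ in sex and castration and lay up to 4.65-fold (ACSS2) and 10.03-fold (ACLY) apart. A missed call here therefore does not show that fetal and adult levels were alike, and a call does not carry the spread between animals. It called 18.2% of 25584 clusters at an FDR of 0.05, and neither ACSS2 nor ACLY. ACSS2 was 3.04 log2 units higher in the adults (edgeR, unadjusted p = 0.0233, FDR = 0.0845) and ACLY 2.05 (edgeR, unadjusted p = 0.154, FDR = 0.279). Without ATAS, the difference was 3.48 for ACSS2 (edgeR FDR = 0.0120) and 2.57 for ACLY (edgeR FDR = 0.0129), and both were called. ACSS2 was also called without ATAB (2.43, edgeR FDR = 0.0467), with DESeq2 (adjusted p = 6.15e-04), with the likelihood ratio test (edgeR FDR = 0.0146) and with library totals in place of TMM (edgeR FDR = 0.0493), and ACLY by none of these. ACSS2 was not called without ATAH (edgeR FDR = 0.132) or with no filter on low counts (edgeR FDR = 0.0526).

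The second comparison set the adult libraries against each other, where sex and castration differ. Between bull and heifer libraries, 5.58% of clusters were called in ATAH over ATAB and neither gene was. ACSS2 was 1.37-fold lower in ATAH (1.35 to 1.39). The log2 ratio of ACLY was 0.01 (-0.02 to 0.04; exact binomial FDR = 0.813). The ACLY value turned to -0.27 with edgeR's TMM factors, -0.28 with DESeq2's size factors and -0.03 with ACTB as scaling gene. These scalings changed every ratio of this pair by -0.28, -0.28 and -0.04 log2 units in the same order.

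In the steer library both genes were called lower than in either other adult library. The share of clusters called was 8.88% in ATAS over ATAB and 3.08% in ATAS over ATAH. ACSS2 was 4.65-fold lower than in ATAB (4.56 to 4.74) and 3.39-fold lower than in ATAH (3.32 to 3.46). ACLY was 9.98-fold lower than in ATAB (9.52 to 10.5) and 10.03-fold lower than in ATAH (9.56 to 10.5). Of the 15644 clusters with at least 100 reads over ATAS and ATAH, 22 had a lower log2 ratio than ACLY and 95 a lower one than ACSS2. In ATAS over ATAB, 23 of 15315 were lower than ACLY and 68 lower than ACSS2. These calls held under the TMM, DESeq2 and ACTB scalings. If a biological coefficient of variation of 0.4 was assumed in edgeR's exact test, no call of either gene remained in any pair, with the FDR for ACLY in ATAS over ATAH at 0.165 and for ACSS2 at 1.

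**Figure D3:**
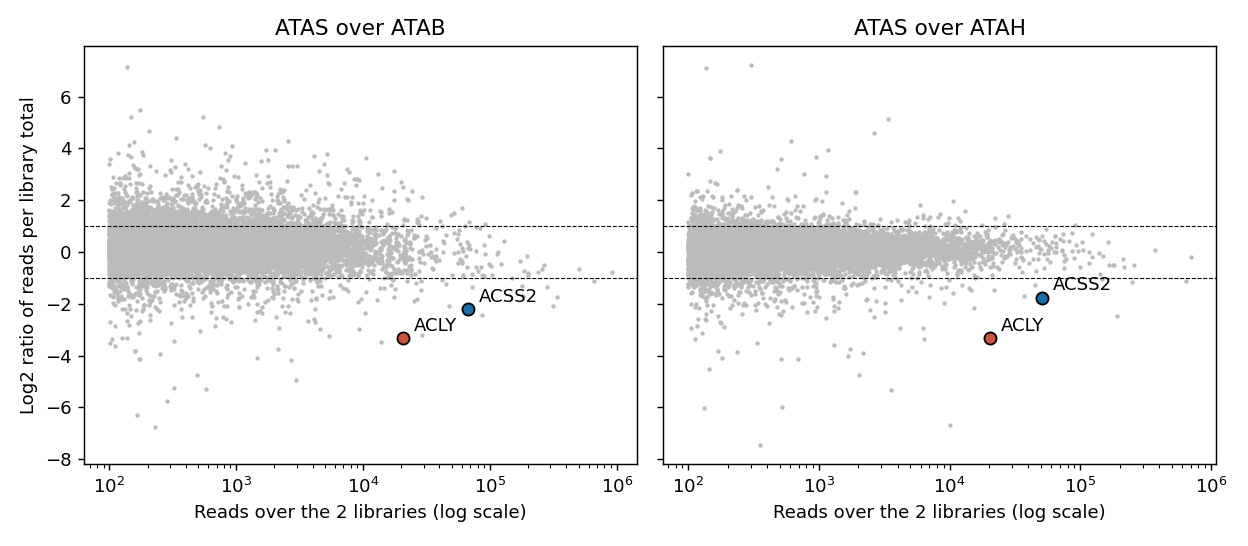
Log2 ratio of reads per library total against reads over both libraries (log axis) for clusters with at least 100 reads and a read in each library; grey points are clusters and dashed lines mark 2-fold. ACSS2 and ACLY lie at -2.22 and -3.32 in ATAS over ATAB and at -1.76 and -3.33 in ATAS over ATAH.

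Genes that define the adipocyte were split in ATAS: of the 10 markers with a cluster, 3 had their highest level there and 5 their lowest adult level. ADIPOQ, the adipokine adiponectin, had 261 RPKM in fetal fat, 982 in bulls, 1150 in heifers and 1498 in steers. PLIN1, which coats the lipid droplet, had 72.7, 520, 834 and 1005 in the same order, so both were highest in the steer library. CIDEA and DGAT2, which reappear below, were on the same list and lowest there among the adults. ACSS2 per ADIPOQ was 0.365 in fetal fat, 1.20 in bulls, 0.751 in heifers and 0.170 in steers. ACLY per ADIPOQ was 0.183, 0.281, 0.241 and 0.0184. All 10 markers were higher in ATAS than in ATFB and ACLY was lower. ACLY per marker was therefore bound to be lower in ATAS for all 10. ACSS2 per marker was lower there for 8 of 10 and higher for CIDEA and LPL, the lipoprotein lipase, at 6.08 against 3.67 and 0.836 against 0.529.

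The other genes of both routes were read from lists. Each count is given beside the share of all clusters called, in its direction or in either direction. That share was 9.61% higher and 13.3% lower in ATAB over ATFB, 14% and 10% in ATAH over ATFB, and 15.6% and 10.8% in ATAS over ATFB. Between adults it was 4.32% and 1.26% in ATAH over ATAB, 7% and 1.89% in ATAS over ATAB, and 1.59% and 1.49% in ATAS over ATAH.

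Of the 10 other genes listed for the acetate route, 9 had a named cluster. In ATAS over ATAH 1 of 9, SLC16A7, was called lower and none higher, with a median log2 ratio of -0.03 against 0.02 for all clusters tested. In ATAS over ATAB 0 of 8 were called with library totals (medians -0.27 and 0.32), but 3 of 8 were lower with TMM factors, against 3.5% of all clusters, and 3 of 8 with DESeq2 size factors, against 3.56%. These were the transporters SLC16A1, SLC16A3 and SLC16A7, at -1.12, -1.11 and -1.14 with TMM. In ATAH over ATAB 0 of 9 were called with library totals. Under the other scalings SLC16A3 was lower, at -1.25 (TMM), -1.26 (DESeq2) and -1.01 (ACTB). The shares of all clusters lower were 2.21%, 2.23% and 1.33% in that order. ACSS1, the mitochondrial acetate enzyme, was nearly level, with 15.5 RPKM in fetal fat, 16.3 in bulls, 13.3 in heifers and 16.2 in steers. ACSS3 had 6.42, 48.0, 36.4 and 33.2 RPKM, low in ATFB and called higher in each adult library. Of the summed RPKM of the 3 synthetases, ACSS2 took 81.3% in fetal fat, 94.8% in bulls, 94.6% in heifers and 83.8% in steers.

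Acetate, lactate and ketone bodies enter cells through monocarboxylate transporters. SLC16A1 had 16.7 RPKM in fetal fat, 66.2 in bulls, 68.2 in heifers and 37.4 in steers. SLC16A7 had 11.6, 59.9, 72.2 and 33.3 RPKM. Both were called higher in every adult library against ATFB (SLC16A1 in ATAS not with ACTB scaling), and SLC16A7 was lower in ATAS than in ATAH, by 1.11 log2 units (-1.21 to -1.02 as interval). SLC16A3, an exporter of lactate, went the other way: 6.398 RPKM in ATFB against 1.38 to 2.71 in the adults, called lower in each. Over the whole list, 3 of 8 tested genes were called higher and 1 lower in ATAB over ATFB (22.9% of all clusters in either direction), 4 and 1 of 9 in ATAH (24.1%), and 4 and 1 of 8 in ATAS (26.3%).

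Ketone bodies are a further source of acetyl-CoA, and 3 of the 5 genes of that list with a cluster were called lower in ATAS than in ATAH and likewise than in ATAB, at medians of -1.39 and -1.64, against 1.49% and 1.89% of all clusters lower. AACS, which activates acetoacetate in the cytosol, had 23.7 RPKM in fetal fat, 46.7 in bulls, 39.4 in heifers and 15.0 in steers. BDH1, which interconverts hydroxybutyrate and acetoacetate, had 17.0, 52.4, 12.1 and 3.03 RPKM. ACAT2, the cytosolic acetoacetyl-CoA thiolase, had 19.0, 42.5, 48.4 and 12.6. All 3 were lowest in ATAS, as ACLY was. OXCT1, the mitochondrial enzyme of ketone body use, had 13.5 RPKM in ATFB and 56.2 to 62.0 in the adults, and was not called between adults. Against ATFB, 3 of 5 were called higher in bulls (9.61% of all clusters), 2 in heifers (14%) and 1 in steers (15.6%), where BDH1 was called lower. In bulls the count was 4 with TMM (11.7% of all clusters), where AACS was added at 1.15, and 2 with ACTB scaling (7.32%).

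The citrate list holds genes that make or move the substrate of ACLY, and 4 of its 8 genes had a cluster. CS, citrate synthase, had 12.5 RPKM in fetal fat, 27.3 in bulls, 21.9 in heifers and 17.5 in steers. The log2 ratio of CS was -0.64 in ATAS over ATAB (-0.76 to -0.51) and -0.32 in ATAS over ATAH (-0.46 to -0.19), both short of 2-fold. With library totals 0 of 4 were called in ATAS over ATAH (3.08% of all clusters), ATAS over ATAB (8.88%) or ATAH over ATAB (5.58%), with medians of -0.41, -0.60 and -0.21. At such shares, 0 of 4 does not set the list apart, and in ATAS over ATAB 1 of 4 was called lower with TMM factors (3.5% of all clusters) and with DESeq2 size factors (3.56%). Against ATFB, 3 of 4 were called higher in ATAB (9.61% of all clusters), CS and ACO1 among them, but 0 of 4 with ACTB scaling (7.32%). In ATAH 1 of 4 was called higher (14%) and in ATAS 1 of 4 (15.6%). Both calls were of ACO1, the cytosolic aconitase, in ATAH at 1.01, a call lost with TMM (0.91), DESeq2 (0.87) and ACTB scaling (0.74).

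In the pyruvate list, 12 of 17 genes had a cluster. PC, the pyruvate carboxylase that supplies oxaloacetate, had 16.3 RPKM in fetal fat, 82.8 in bulls, 93.2 in heifers and 94.5 in steers, and it was not called between adult libraries, among them the one where ACLY was lowest. PDK4, the kinase that switches off pyruvate dehydrogenase, had 46.2, 238, 477 and 765 RPKM and was highest in ATAS. It was called higher in ATAS than in ATAB, by 1.69 log2 units, and in ATAH over ATAB at 1.004, a call lost under the 3 other scalings. SLC2A4, the insulin-responsive glucose transporter, had 11.8, 19.2, 18.6 and 5.54 RPKM, and fell by 1.75 log2 units in ATAS over ATAH and by 1.79 in ATAS over ATAB. LDHA, which makes lactate from pyruvate, had 357 RPKM in ATFB against 53.5 to 78.9 in the adults, and was called lower in each. Over the list, 0 were called higher and 1 lower in ATAS over ATAH, and 1 and 1 in ATAS over ATAB, with medians of -0.13 and 0.09, where 3.08% and 8.88% of all clusters were called in either direction. Against ATFB, the counts were 4 and 1 in ATAB (22.9%), 3 and 1 in ATAH (24.1%), and 3 and 2 in ATAS (26.3%). The genes called higher were PC, PDK2 and PDK4 in each, with PDHX added in ATAB. They include the kinases PDK2 and PDK4, which act against pyruvate dehydrogenase, so the counts give no direction for the route. In ATAB the counts were 5 and 1 with TMM and with DESeq2 scaling (21.9% of all clusters with each). DLAT of the pyruvate dehydrogenase complex was gained at 1.05 (TMM). With ACTB the counts were 2 and 2 (25.1%).

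Fatty acid synthesis also needs NADPH, and all 9 genes of that list had a cluster. IDH1, the cytosolic NADP isocitrate dehydrogenase that uses citrate carbon without ACLY, had 57.6 RPKM in fetal fat, 261 in bulls, 240 in heifers and 151 in steers. ME1, the malic enzyme that works downstream of ACLY in non-ruminant fat, had 2.67, 68.2, 43.7 and 21.4. Both were higher in all adult libraries than in ATFB, and among the adults highest in ATAB and lowest in ATAS. In ATAS, 4 of 9 were called lower than in ATAB (ME1, PGD and TKT among them) and 2 of 9 lower than in ATAH (ME1 and PGD), with none higher and medians of -0.96 and -0.71, against 1.89% and 1.49% of all clusters lower. With TMM factors the first count rose to 6 of 9, with IDH1 at -1.09 and TALDO1, of the pentose phosphate pathway, at -1.25, against 3.5% of all clusters lower, and the second to 3 of 9, against 1.64%. Against ATFB, 6 of 9 were called higher in bulls (9.61% of all clusters), 6 in heifers (14%) and 4 in steers (15.6%), with 1 lower in each of ATAH and ATAS. With ACTB scaling the counts were 6 in bulls (7.32% of all clusters), 4 in heifers (10.6%) and 3 in steers (12.3%). IDH2, the mitochondrial NADP isocitrate dehydrogenase, was then lower in bulls at -1.21, where 17.8% of all clusters were lower.

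Among the genes that use acetyl-CoA, 12 of 15 had a cluster, and 8 of 12 were called lower in ATAS than in ATAH, and 8 of 12 lower than in ATAB. The median log2 ratios were -1.21 and -1.59, against 0.02 and 0.32 for all clusters tested, of which 1.49% and 1.89% were called lower. FASN had 138 RPKM in fetal fat, 1548 in bulls, 1324 in heifers and 599.6 in steers. HMGCS1, which starts the sterol branch from acetyl-CoA, had 6.72, 43.6, 73.8 and 7.26, and fell by 3.34 log2 units in ATAS over ATAH. IDI1, of the same branch, had 42.9, 162, 123 and 24.9. MID1IP1, a partner of acetyl-CoA carboxylase, had 29.2, 109, 131 and 17.1. In ATAS, IDI1 and MID1IP1 lay below their level in ATFB, as ACLY did, and HMGCS1 near it. FASN, SCD, THRSP and MLYCD lay 2.12, 3.85, 4.25 and 1.25 log2 units above theirs. Against ATFB, 9 of 12 were called higher in bulls (9.61% of all clusters), 9 in heifers (14%) and 4 in steers (15.6%). With ACTB scaling, IDI1, MID1IP1 and MVD, of the sterol branch, were called lower in ATAS than in ATFB, at -1.04, -1.02 and -1.05, where 14.6% of all clusters were lower.

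Of the regulators, 12 had a cluster. SREBF1, the sterol and lipid synthesis factor, had 39.1 RPKM in fetal fat, 61.0 in bulls, 87.5 in heifers and 60.8 in steers, and was not called between adult libraries. INSIG1, which holds that factor in the endoplasmic reticulum and is itself sterol-responsive, had 15.1, 76.3, 126 and 16.6, falling by 2.93 log2 units in ATAS over ATAH. MLXIPL, a carbohydrate-responsive factor, had 7.50, 18.9, 34.8 and 15.9, and fell by 1.13. Of the 12, 2 were called lower in ATAS than in ATAH (1.49% of all clusters) and 1 lower than in ATAB (1.89%), with none higher and medians of -0.11 and 0.04. Against ATFB, 4 were called higher in bulls (9.61%), 5 in heifers (14%) and 2 in steers (15.6%), with none lower. In steers the count was 1 with TMM (14.1% of all clusters), DESeq2 (13.5%) and ACTB scaling (12.3%). In heifers it was 4 with TMM (12.7%) and DESeq2 (12.2%) and 3 with ACTB (10.6%). In bulls it was 3 with ACTB (7.32%). There PRKAA1, a subunit of AMP-activated protein kinase, was lower at -1.10, where 17.8% of all clusters were lower.

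In the fit of ATFB against all adults, which called 18.2% of all clusters in either direction, edgeR called 2 of 8 genes of the acetate list, 1 of 5 of the ketone list, 0 of 4 of the citrate list, 3 of 12 that use acetyl-CoA, 1 of 9 of the NADPH list and 1 of 12 regulators higher in the adults, and 3 of 11 of the pyruvate list higher with 1 lower. In the citrate list 1 of 4, ACO1, had an unadjusted p under 0.05 by edgeR, and DESeq2 called 1 of 4, against 22.1% of the 23600 clusters to which it gave an adjusted p.

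**Figure D4:**
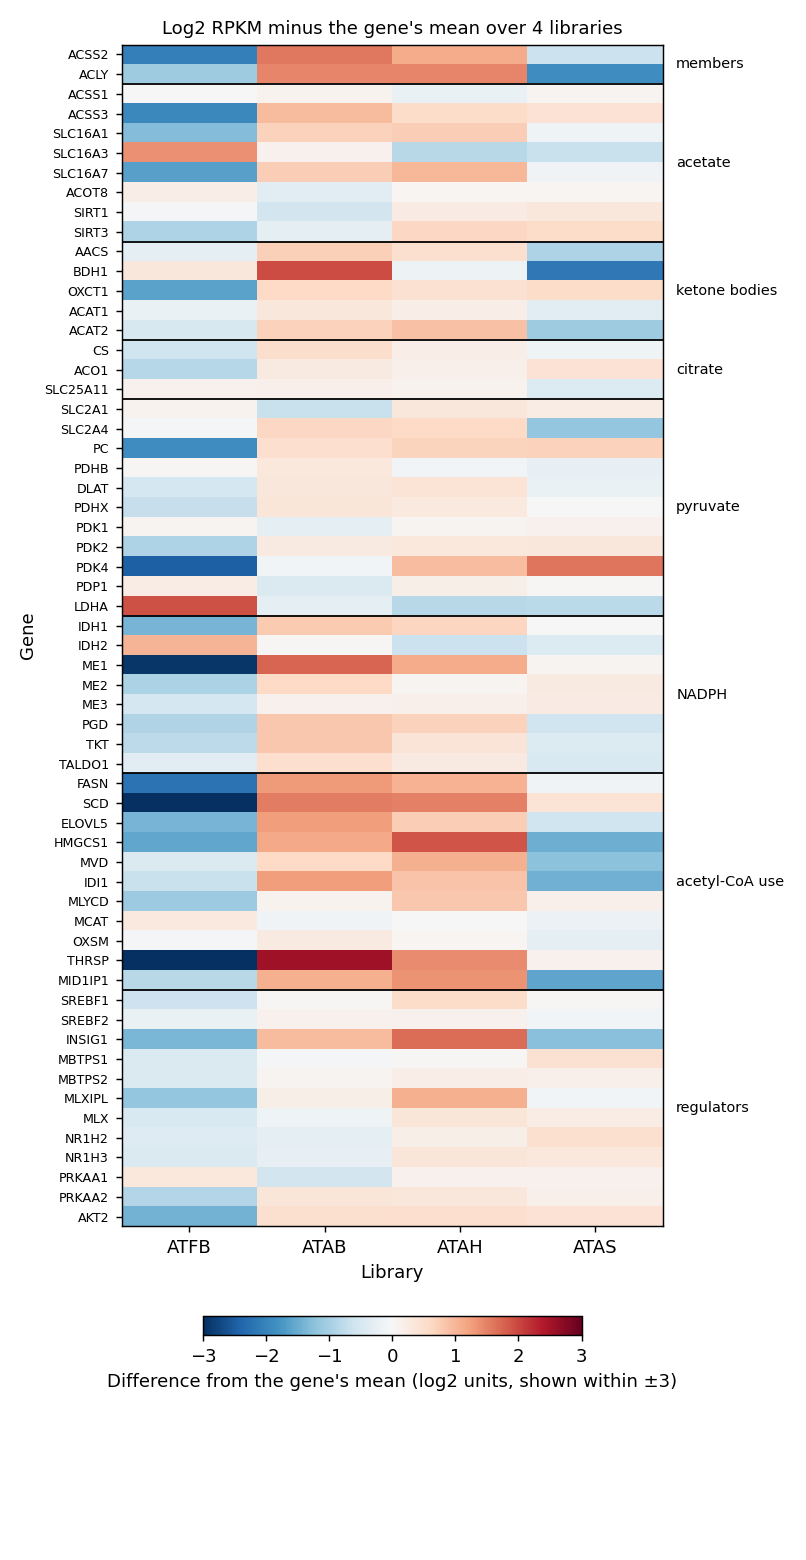
Log2 RPKM of ACSS2, ACLY and the listed genes with at least 100 reads, each minus its mean over the 4 libraries (colour, shown within 3 log2 units either side). ACSS2 is lowest in ATFB and ACLY in ATAS, where HMGCS1, IDI1, INSIG1 and MID1IP1 are also low, while PC and PDK4 are not.

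The 2 genes had different nearest neighbours. Among clusters with a gene symbol and at least 100 reads in each library, likeness was the mean absolute difference of centred log2 RPKM over the 4 libraries, given as a description since 4 points fix little. Among the 5 most like ACSS2 were XPNPEP2, an aminopeptidase (0.22), FASN (0.27), CIDEA, a lipid droplet protein (0.31), and DGAT2, the last step of triglyceride synthesis (0.34). The 5 most like ACLY were MID1IP1 (0.26), IDI1 (0.41), INSIG1 (0.41), HMGCS1 (0.41) and CIDEA (0.53). Between ACSS2 and ACLY the difference was 0.67 log2 units, which ranked ACLY 29 in the list of ACSS2 and ACSS2 8 in the list of ACLY. The lists shared CIDEA, and IDI1, HMGCS1 and INSIG1, of the sterol branch and its regulation, stood in the ACLY list alone.

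**Figure D5:**
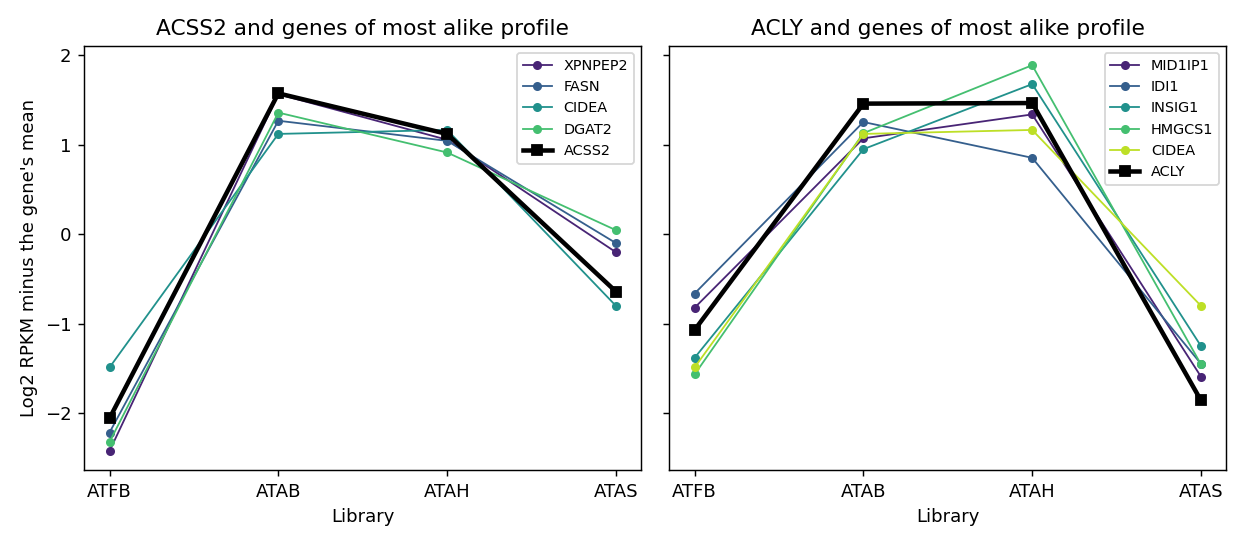
Centred log2 RPKM over the 4 libraries for ACSS2 (left, black) and ACLY (right, black), each with genes from the 5 of most alike profile. The ACSS2 group is lowest in ATFB, and ACLY with MID1IP1 and IDI1 is lowest in ATAS.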

How the data were processed

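Subcutaneous fat RNA of 4 groups was sequenced as 4 pools of 5 animals. The paper describes alignment to the reference genome with SOAPaligner and use of uniquely mapped reads only. It does not state how reads were assigned to UniGene clusters. The deposited values are read counts, the percent of each cluster covered and RPKM, by UniGene cluster. The submitters' processing notes name CASAVA, and versions are not given in the sources used here. The deposited RPKM equalled reads per kilobase and per 1000000 of the summed reads. No setting for strand was stated, so reads of overlapping antisense transcripts cannot be told apart.

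From the counts, 6 library pairs were tested by exact binomial tests (scipy 1.17.1), and ATFB against the 3 adult libraries by edgeR 4.0.16 (TMM, filterByExpr, quasi-likelihood). Intervals are 95% Clopper-Pearson, or exact conditional for a ratio of ratios (scipy), and cover counting error only, as reads are not independent molecules. BLAST 2.17.0 searched the members against all clusters. The tests were tried on simulated data first. Alternatives were TMM and DESeq2 1.42.0 scaling, ACTB scaling, a minimum of 10 reads, an assumed variation, other lengths and leaving out a library.

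Symbols came from the cluster descriptions. Named genes were the members, listed genes with at least 100 reads over the libraries, and the 5 clusters most alike to each member. Members and lists were chosen with earlier results of these data known. Listed genes without a named cluster were not analysed here. Some listed or alike genes are counted but not reported here by name. Genome positions, promoters and proteins were not used here.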

Additional observations from a re-analysis of the deposited data

How the results depend on the processing

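No paired analysis was possible because each group had 1 library. The direction and call of ACSS2 and ACLY held in 50 of 54 recomputed pairwise ratios (TMM, DESeq2 and ACTB scaling, a minimum of 10 reads, the matching cluster added); the exceptions were ACLY in ATAH over ATAB, at -0.27 (TMM), -0.28 (DESeq2) and -0.029 (ACTB), and ACLY in ATAS over ATFB, called with ACTB at -1.04. TMM factors changed the log2 ratios by 0.18 in ATAB over ATFB, -0.28 in ATAH over ATAB and -0.29 in ATAS over ATAB, and moved the share of calls that were higher from 42.0% to 53.2%, from 77.5% to 48.9% and from 78.8% to 49.4%. ACTB scaling moved it from 42.0% to 29.2% in ATAB over ATFB, from 58.2% to 42.3% in ATAH over ATFB and from 59.1% to 45.7% in ATAS over ATFB. Of 390 recomputed ratios of called listed genes, 33 lost the call and none reversed; listed genes with at least 100 reads gained 11 calls with TMM, 11 with DESeq2 and 7 with ACTB scaling.

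If a biological coefficient of variation of 0.4 was assumed (edgeR exact test), the log2 ratios of ACSS2 were 3.63, 3.18 and 1.42 in ATAB, ATAH and ATAS over ATFB, and -2.22 and -1.76 in ATAS over ATAB and over ATAH; those of ACLY were 2.53, 2.54, -3.32 and -3.33 (ATAB and ATAH over ATFB, ATAS over ATAB and over ATAH). None was called, at FDRs from 0.00705 to 1. Called clusters fell from 7808 to 184, 8320 to 229, 9076 to 278, 1890 to 13, 2995 to 5 and 1048 to 12 (ATAB, ATAH and ATAS over ATFB, ATAH and ATAS over ATAB, ATAS over ATAH), where both the test and the spread differ from the binomial test; the part of each was not tested.

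Without division by length, the ACSS2 to ACLY ratio was 1.37 in fetal fat, 2.95 in bulls, 2.14 in heifers and 6.33 in steers. With the shared bases taken from the ACLY length but all its reads kept (chosen after seeing the sequences) it was 1.70, 3.64, 2.65 and 7.82; both alternatives multiply all 4 ratios by 1 fixed factor and test nothing about their order. Against all adults, ACSS2 passed the threshold with library totals (3.01), the likelihood ratio test (3.04) and DESeq2 (3.02); leaving out an adult library gave 2.43 to 3.48 for ACSS2 and 1.56 to 2.57 for ACLY, and 2321 (without ATAH) to 7123 (without ATAB) called clusters, against 4661 with all libraries and 7408 by the likelihood ratio test. In other cases the cause was not tested.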
